A study of Glycine max with 20 samples.

Results

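SbPRP3 (Glyma.11G154900), a hydroxyproline-rich gene (Glyma.10G129900) and an extensin-like gene (Glyma.13G178700) are 3 of the 56044 soybean genes measured in developing seed coats. They were chosen by name, from wall protein genes that the study lists as higher in the standard isoline UC7 than in the minute hilum isoline UC413. For SbPRP3 and the extensin-like gene that listing rests on the extended hilum (EH) at EH50, and for the hydroxyproline-rich gene on EH10 and EH50, so the isoline difference of each gene at those stages is described here without a test. Each gene has 1 splice form among the 88647 Glyma models, whose identifiers place them on chromosomes 11, 10 and 13 of the Wm82.a2 annotation.

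Both isolines carry the ii and R alleles. UC7 is Clark 63 with the alleles T, Mi and g, and UC413 has t, mi and G, with mi brought in from a cross of Laredo and Harosoy by repeated backcrossing, so the lines differ at T, Mi and G and in the stretches of chromosome that came in with them, and the parts of these in a difference cannot be told apart. Seeds came from greenhouse plants and were staged by fresh weight: EH10 was 10 to 25 mg, EH25 25 to 50 mg, EH50 50 to 100 mg and EH100 100 to 200 mg, as in the sample titles (the growth protocol gives 50 to 75 mg for the third range and does not list the fourth). The extended hilum is the hilum, the scar where the seed was attached, with a little of the seed coat around it, and WS10, WS25 and WS50 are whole seed coats at the first 3 weights. EH10, EH25 and EH50 had 2 libraries for each isoline, which the study describes as independent, and EH100 and the whole seed coats had 1, in all 20 libraries.

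Cell walls of plants hold structural proteins rich in proline, much of which is turned into hydroxyproline by prolyl 4-hydroxylases and then carries arabinose or arabinogalactan sugars. Extensins and proline-rich proteins (PRPs) can be cross-linked into the wall and make it less extensible, while arabinogalactan proteins are heavily glycosylated and sit at the cell surface. SbPRP3 belongs to a small group of soybean PRPs, with SbPRP2, that differ in the organs and stages in which they are expressed.

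The libraries held 91768975 to 128803969 alignments, recovered from the deposited RPKM (alignments relative to the length of the model and to all alignments of the library). The levels below are RPKM as deposited unless they are called scaled, which means set relative to a size factor of the library (the median of ratios). The scaling matters for the isolines, since the median model was higher in UC413 by 0.71 on the log2 scale at EH10, 0.32 at EH25 and 0.24 at EH50 before it, and within 0.1 of 0 after it. Seed coat genes of a 14-gene list were at 1 RPKM or more in every library for 12 or 13 of the 14. Genes of the embryo or cotyledon summed to 1.52 to 1.83 RPKM in the EH10 libraries, and at EH100 to 260.0 RPKM (UC7) and 93.0 RPKM (UC413). The UC7 EH25 replicates were less alike than any other pair (Pearson correlation across models 0.936, against 0.971 or more), and a non-stranded kit was used for EH100, WS50 and the first EH50 replicate of both isolines.

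SbPRP3 was among the most abundant RNAs of the seed coat in both isolines. In UC7 its extended hilum level was highest at EH50, the stage of its listing as higher in UC7. In UC413 the extended hilum level was highest at EH25, and the difference in course between the isolines was not tested. The SbPRP3 model is annotated with the extensin-like protein repeat and as a structural constituent of the cell wall. The model is 2400 bases long, of which 273 (11.4%) are annotated as coding. Over the 20 libraries it ran from 162 to 1235 RPKM and ranked between the 16th and the 219th highest of all models, with 0.0389% to 0.296% of the alignments of a library.

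In UC7 the 2 extended hilum libraries of SbPRP3 held 250.2 and 296 RPKM at EH10. They held 610.1 and 442 RPKM at EH25, and 1235 and 777 RPKM at EH50. The single EH100 library had 287 RPKM. The UC7 replicates thus overlapped at no pair of these 3 stages, and each stage lay above the one before it until EH100. The libraries at 1235 RPKM (EH50) and 287 RPKM (EH100) were non-stranded, and that at 777 RPKM was stranded, as were those of EH10 and EH25. The part of the kit in this course was not tested.

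In UC413 SbPRP3 was at 290.0 and 278 RPKM at EH10 and at 508 and 322 RPKM at EH25. At EH50 both libraries were at 288 RPKM, and at EH100 the library had 162 RPKM. The 2 isolines overlapped at EH10 and EH25 in RPKM and were apart at EH50, where the lower UC7 library was above the higher UC413 library.

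**Figure D1:**
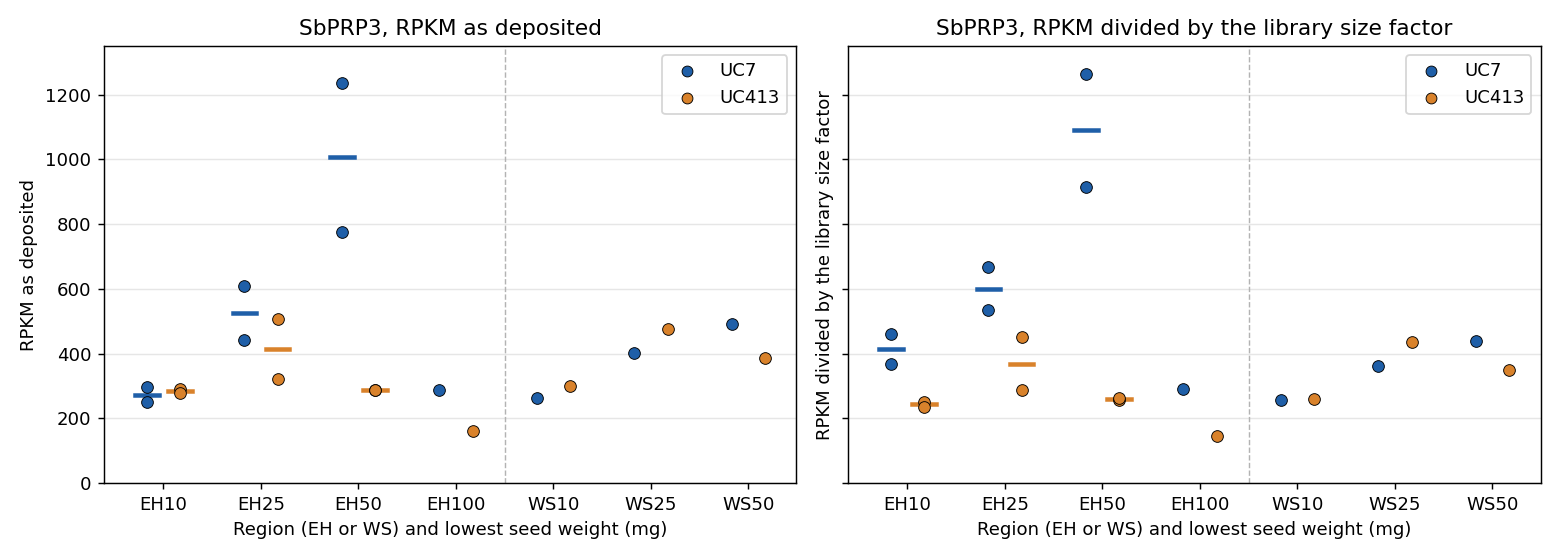
SbPRP3 in each of the 20 libraries, as RPKM (left) and as RPKM divided by the size factor of the library (right), for the extended hilum (EH) and whole seed coats (WS) of UC7 and UC413. Each point is 1 library and each bar the mean of 2 replicates; the UC7 points at EH50 (1235 and 777 RPKM) stand above all others.

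At EH50, where the gene was chosen, scaled SbPRP3 was 4.15-fold lower in UC413 (log2 difference −2.05, SE 0.31, n = 2 against 2). At the other stages the test of the isoline difference with limma, adjusted over 57568 models, did not pass the threshold of 0.05. The log2 difference was −0.74 (SE 0.31, adjusted p = 0.170) at EH10 and −0.73 (SE 0.31, adjusted p = 0.237) at EH25. On the scaled values the EH10 replicates did not overlap (367 and 459 in UC7, 236 and 252 in UC413), and on RPKM as deposited they did, with a difference of 0.061 in the other direction. The direction at EH10 therefore turned with the scaling. The 2 whole seed coats at 10 to 25 mg and 25 to 50 mg were slightly higher in UC413 (0.014 and 0.26 on the log2 scale) and that at 50 to 100 mg was lower (−0.33). Over the 4 pairs of single libraries the mean was −0.26 (SE 0.21, limma adjusted p = 0.609), with 2 pairs higher and 2 lower in UC413.

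The stage differences, averaged over both isolines, did not pass either. SbPRP3 had a log2 difference of 0.55 (SE 0.22, limma adjusted p = 0.240) from EH10 to EH25 and of 0.19 (SE 0.22, limma adjusted p = 0.615) from EH25 to EH50. The second average joins a higher level in UC7 with a lower one in UC413.

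Whole seed coats gave SbPRP3 levels of 264, 401 and 491 RPKM in UC7 and of 301, 477 and 386 RPKM in UC413 at the 3 weights. In UC7 all 3 whole seed coats were below the scaled mean of the extended hilum, with log2 differences of −0.67, −0.72 and −1.29 in order of weight. In UC413 all 3 were above it, with differences of 0.093, 0.27 and 0.43. The mean over the 6 pairs was −0.31 (SE 0.15, limma adjusted p = 0.147, exact sign-flip p = 0.344, where the smallest possible is 0.0312). At EH10 and EH25, which did not choose the gene, the region difference was 0.88 (SE 0.36) higher in UC413 than in UC7. This contrast of region by isoline did not pass (limma adjusted p = 0.915).

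**Figure D2:**
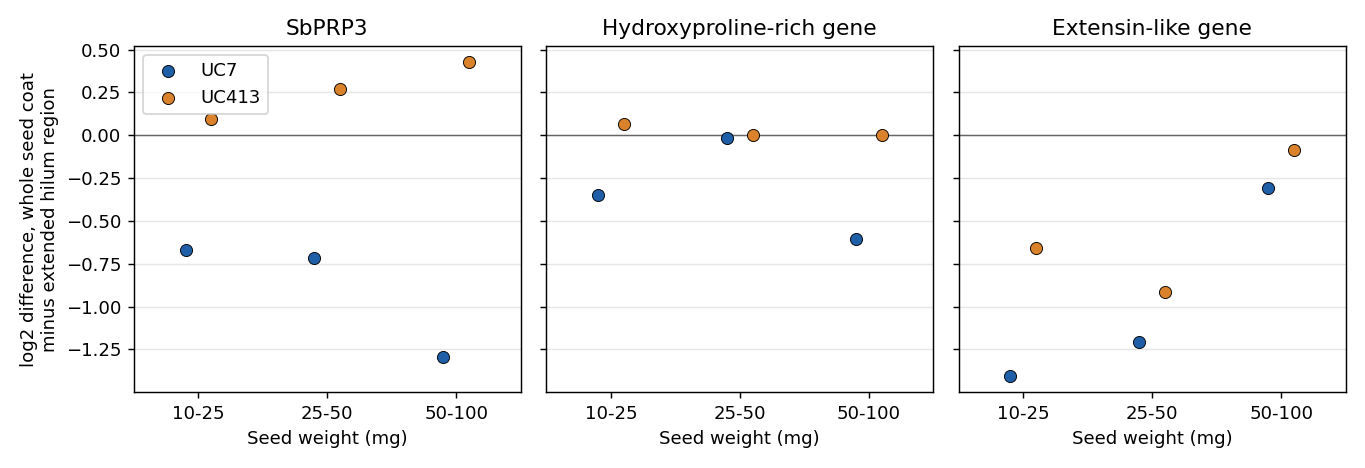
Whole seed coat minus extended hilum, as log2 difference of scaled RPKM plus 0.25, by seed weight, with 1 point for each isoline and weight (1 whole seed coat library against the mean of 2 extended hilum libraries). SbPRP3 is below 0 in all 3 UC7 pairs and above 0 in all 3 UC413 pairs, and the extensin-like gene is below 0 in all 6.

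Ordered by scaled level, the groups ran from UC7 EH50 (1090 ± 246, SD, n = 2) and UC7 EH25 (601 ± 92.8, SD, n = 2) down to UC413 EH100 (146, 1 library). Neither of the first 2 overlapped with any other group. The 7 groups that followed, from 439 (UC7 WS50) to 290 (UC7 EH100), all lay within the 2 replicates of UC413 EH25, itself among them, which were at 288 and 450, except UC7 EH10, whose higher replicate was at 459. The next 4 were at 244 to 260, and 3 of them were from UC413.

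The extensin-like protein repeat is annotated in only 3 soybean genes of the file, so the other members of this family could be set beside SbPRP3. Glyma.09G092700 was more abundant still, with a median of 1049 RPKM (65.7 to 4696), and Glyma.15G199700 less, with a median of 4.52 RPKM (0.132 to 74.4). Glyma.09G092700 fell from EH25 to EH50 by 1.62 on the log2 scale (limma adjusted p = 0.0127) and was higher in whole seed coats than in the extended hilum by 0.96 (limma adjusted p = 0.0122). SbPRP3 passed in neither of these tests, and the differences between the genes were not tested. The isoline difference of Glyma.09G092700 was −1.05 (limma adjusted p = 0.167) at EH50, and that of Glyma.15G199700 was 1.51 (limma adjusted p = 0.286). Reads may align to up to 25 models in these data, so shares of such repeat genes in each other's values are uncertain.

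SbPRP2 (Glyma.09G093000), another of the named soybean PRPs, had another pattern, with its highest levels at EH100. It was at 0.508 RPKM in UC7 WS10 and at EH100 reached 511 RPKM in UC7 and 545 in the other isoline. At EH10 the UC7 replicates had 0.812 and 0.942 RPKM, those of UC413 12.8 and 8.08 RPKM, a log2 difference of 2.51 (limma adjusted p = 0.235) whose replicates did not overlap. At EH25 the UC7 replicates were at 68.2 and 1.35 RPKM and enclosed the UC413 values of 17.7 and 18.3 RPKM. At EH50, where the study lists it as higher in UC413, the levels were 23.3 and 16.3 RPKM in UC7 and 82.6 and 46.2 RPKM in UC413. The embryo and cotyledon list summed to 22.8 RPKM in the UC7 EH25 replicate with the high SbPRP2 and to 6.54 RPKM in the other, and its part in the difference was not tested.

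The hydroxyproline-rich gene was expressed at a low level in every UC7 library and was all but undetected in UC413. Its model is 591 bases long, all of them coding, and carries no Pfam domain, ontology term or Arabidopsis match in the annotation used here. Its name comes from the study's own listing. The gene passed the filter on low values (1 RPKM in at least 2 libraries) through UC7 alone and so had to differ, and its isoline difference is given as alignments with no test.

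The 10 UC7 libraries held 84 alignments or more each to this gene, 1169 in all, for levels of 1.10 to 3.17 RPKM. In the extended hilum they were at 1.10 and 1.96 RPKM at EH10, at 1.74 and 1.34 RPKM at EH25 and at 3.17 and 1.37 RPKM at EH50. The EH100 library had 2.71 RPKM, and the whole seed coats had 1.73, 1.92 and 1.60 RPKM. Of the UC413 libraries 9 had 0 alignments, and WS10 had 1 (0.0138 RPKM). No UC413 value came near the lowest UC7 value.

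**Figure D3:**
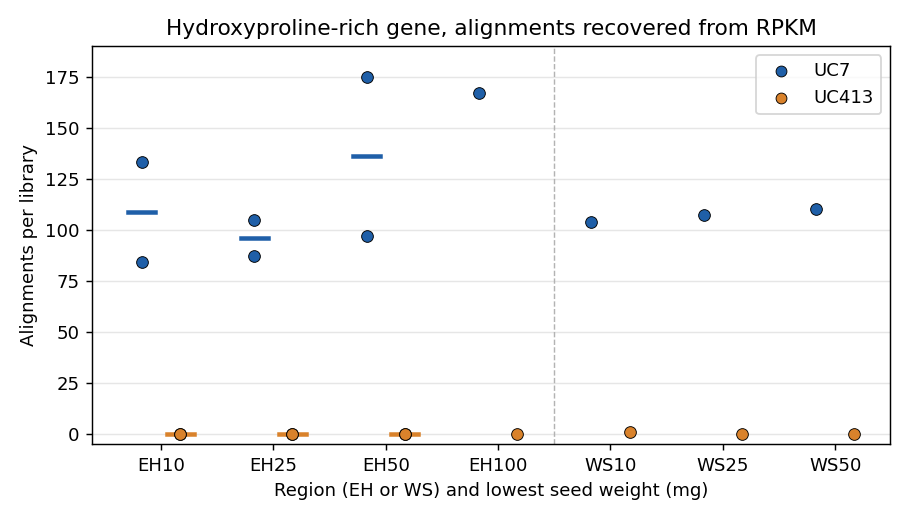
Alignments to the hydroxyproline-rich gene in each library, by region and lowest seed weight, with 1 point for each library and bars at the mean of 2 replicates. UC7 libraries hold 84 alignments or more, and UC413 libraries hold 0, apart from 1 alignment in WS10.

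At EH25, which did not choose the gene, 192 alignments over both UC7 libraries stood against 0 in UC413. The UC7 level (1.53 RPKM) was 63.7-fold a limit of 3 alignments over the 2 UC413 libraries (0.0241 RPKM). This ratio leaves out the counting error of UC7, so it is not a lower bound. In the single libraries, EH100 and the whole seed coats, 488 alignments in UC7 stood against 1 in UC413, with UC413 lower in 4 of 4 pairs. The ratio of UC7 to UC413 over these 8 libraries, relative to their total alignments, was 518, with a counting interval of 92.6 to 20519 (exact, 95%) that covers counting error only. At EH10 and EH50, the stages of its listing, the alignments were 217 and 272 in UC7 and 0 in UC413.

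Other models with this pattern were looked for with limits taken from the gene's own values, so its share is a description and no test. Of 40753 models at 1 RPKM or more in all 10 UC7 libraries, this was the 1 with 3 alignments or fewer in every UC413 library (0.00245%), and none of 47386 did the reverse. These limits were set after the values had been seen, and the libraries include those of EH10 and EH50, the stages that chose the gene. At 0.25 RPKM or more there were 4 such models, with Glyma.03G027100, Glyma.07G150400 (a GDSL-like lipase) and Glyma.10G129500, and 1 in the other direction, Glyma.12G067000 (the cytochrome P450 CYP93D1). Glyma.10G129500 lies close to the hydroxyproline-rich gene in the numbering of chromosome 10. It had 0.305 to 3.48 RPKM in UC7 and at most 2 alignments in a UC413 library. The neighbours Glyma.10G129700 and Glyma.10G129800, numbered between these 2, were expressed in both isolines (medians of 2.70 and 5.65 RPKM and of 2.43 and 3.99 RPKM in UC7 and UC413). Reads with more than 3 mismatches to the reference model were not aligned, so an absent or diverged gene and a silent gene cannot be told apart in these values.

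Averaged over both isolines, neither stage nor region passed the test for the hydroxyproline-rich gene. The averages join UC7 with UC413, where the gene was all but undetected, so a difference within UC7 is diluted. The UC413 replicates also add no spread to the error, so the test cannot decide whether the gene changes within UC7. The log2 differences were −0.15 (limma adjusted p = 0.731) from EH10 to EH25, 0.18 (limma adjusted p = 0.610) from EH25 to EH50 and −0.15 (limma adjusted p = 0.473) between whole seed coat and extended hilum. The UC7 values carried these differences: by weight, those between regions were −0.35, −0.014 and −0.60 in UC7 and 0.067, 0 and 0 in UC413. The highest UC7 levels, EH50 replicate 1 and EH100, were both from non-stranded libraries. The other non-stranded UC7 library, WS50, was at 1.60 RPKM and had the lowest scaled level of UC7 (1.43). The third-highest UC7 level, 1.96 RPKM, was from a stranded library, and the part of the kit was not tested.

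The extensin-like gene was lower in UC413 at every stage and in both regions, and it fell as the seeds grew. Its model (1225 bases, 885 of them coding) has the domain of pollen Ole e I proteins, small secreted proteins, and its best Arabidopsis match is of the Pollen Ole e 1 allergen and extensin family. The UC7 replicates had 27.3 and 44.9 RPKM at EH10. They had 20.6 and 23.2 RPKM at EH25 and 11.8 and 7.50 RPKM at EH50. The EH100 library had 3.08 RPKM. The replicates of these 3 stages did not overlap.

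In UC413 the extensin-like gene was at 17.1 and 20.0 RPKM at EH10. It was at 12.2 and 8.40 RPKM at EH25 and at 2.47 and 2.26 RPKM at EH50. The EH100 library had 1.94 RPKM. The replicates of the 2 isolines did not overlap at any of these stages.

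**Figure D4:**
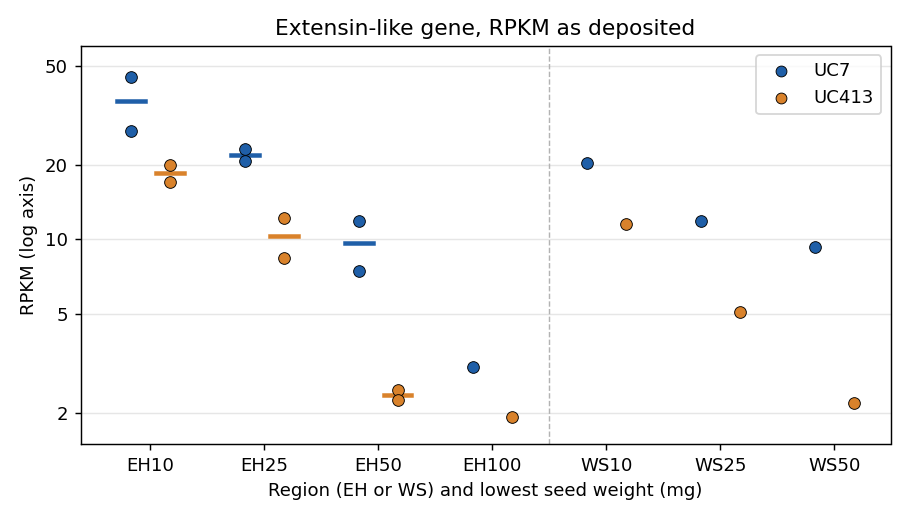
RPKM of the extensin-like gene in each library on a log axis, by region and lowest seed weight, with 1 point for each library and bars at the mean of 2 replicates. Levels fall from EH10 (27.3 and 44.9 RPKM in UC7, 17.1 and 20.0 RPKM in UC413) to EH100 (3.08 and 1.94 RPKM), and UC7 is above UC413 in each group.

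The gene was called lower in UC413 at EH10, 3.27-fold on scaled values (log2 difference −1.71, SE 0.20, limma adjusted p = 0.00167). The size depended on the processing, with −1.73 to −0.91 over the alternatives other than leaving out single libraries. As deposited the means were 36.1 RPKM in UC7 and 18.5 RPKM in UC413 (n = 2 each). At EH10 the extensin-like gene was the 1 called of the 2 genes tested there, SbPRP3 and itself, against 6.36% of all models. At EH25 it was lower too (log2 difference −1.45, SE 0.20, limma adjusted p = 0.00820), again the 1 called of SbPRP3 and itself, against 2.21% of all models. Without the second UC413 replicate of EH25 the adjusted p was 0.0672. At EH50, the stage that chose it, the log2 difference was −2.15 (SE 0.20), a 4.45-fold lower level in UC413, while 8.07% of all models were called. In the single libraries the log2 difference averaged −1.20 (SE 0.14, limma adjusted p = 0.00530), with 4 of 4 pairs lower. There too it was called and SbPRP3 was not, against 0.93% of the models. The spread used for these single libraries came from the replicated groups. Over the 4 pairs of the extensin-like gene the exact sign-flip p was 0.125, the smallest possible.

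From EH10 to EH25 the extensin-like gene fell by 0.93 on the log2 scale over both isolines (SE 0.14, limma adjusted p = 0.0227), and from EH25 to EH50 it fell by 1.61 (SE 0.14, limma adjusted p = 2.57e-04). It was the 1 of the 3 genes called for either step, against 1.28% and 11.3% of all models. The first call rests on each of 5 libraries: without either UC413 EH10 replicate (adjusted p = 0.0624 and 0.115), UC7 EH10 replicate 2 (0.101), UC7 EH25 replicate 1 (0.0656) or UC413 EH25 replicate 2 (0.0710) it was lost.

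Whole seed coats had 20.2, 11.9 and 9.28 RPKM of the extensin-like gene in UC7 and 11.5, 5.11 and 2.20 RPKM in UC413. On scaled values the gene was lower there than in the extended hilum in 6 of 6 pairs, with log2 differences of −1.41 to −0.085. The mean was −0.76 (SE 0.10, limma adjusted p = 8.40e-04; exact sign-flip p = 0.0312, the smallest possible). It was the 1 of the 3 genes called between the regions, against 25.1% of the models. The smallest differences were those at 50 to 100 mg, in both isolines (−0.31 in UC7 and −0.085 in UC413). As deposited, UC7 WS50 (9.28 RPKM) lay between the UC7 EH50 replicates (11.8 and 7.50 RPKM). UC413 WS50 (2.20 RPKM) lay just under its EH50 replicates (2.47 and 2.26 RPKM).

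The 3 genes did not follow one course over the libraries. As a description over 20 libraries that share genotype and stage, the Pearson correlation of log2 scaled levels was 0.37 between SbPRP3 and the extensin-like gene. It was 0.59 between SbPRP3 and the hydroxyproline-rich gene, and 0.54 between the latter and the extensin-like gene.

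The genes most like SbPRP3 by this measure were the cupin genes Glyma.11G144300 and Glyma.11G143800 (both 0.92), a BAG2 gene, Glyma.15G091900 (0.89), a GDSL-like lipase gene, Glyma.19G226900 (0.89), and a pectin methylesterase gene, Glyma.16G014100 (0.88). Their Spearman correlations were 0.81, 0.79, 0.88, 0.80 and 0.68, in the same order. The 2 cupin genes reached at most 0.72 and 0.87 RPKM in a UC413 library. The libraries include those of EH50, the stage that chose SbPRP3. Pectin methylesterases remove methyl groups from wall pectin. Nearest to the extensin-like gene were a pectin methylesterase inhibitor gene, Glyma.15G181600 (0.97), the glycosyl hydrolase gene Glyma.03G216100 (0.96), 2 gibberellin-regulated genes, Glyma.19G133600 and Glyma.03G131700 (both 0.96), and an AGP26 gene, Glyma.02G152500 (0.95). Those nearest to the hydroxyproline-rich gene shared its contrast between the isolines, with Glyma.03G027100 first (0.99), then Glyma.13G066100 (an AAA-ATPase) and Glyma.01G198200 (both 0.98), Glyma.09G077600 (an L18p ribosomal protein, 0.97) and Glyma.11G236200 (an aminotransferase, 0.96).

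Other genes of wall proteins were counted from annotation lists, 339 genes of which 206 were high enough to be tested, with 1 model for each gene. At EH50 25 were lower and 8 higher in UC413, 16.0% of those tested, against 4.84% lower and 3.44% higher over all genes. The 8 higher genes were 4 from the hydroxyproline-rich glycoprotein list and 4 from the proline-rich list. At EH10 7 were lower and 9 higher (3.41% and 3.43% of all genes), and at EH25 1 was lower and 2 were higher (1.14% and 1.41%). The split turned with the scaling: on RPKM as deposited 1 was lower and 115 were higher at EH10, and 1 and 14 at EH25. With 1 library left out, 1 to 17 were lower and 0 to 19 higher at EH10, and 0 to 17 and 0 to 5 at EH25. The counts at EH50 include SbPRP3 and the extensin-like gene, both chosen for their difference there. They too rest on single libraries: without the first UC413 replicate of EH50 the lower count was 3, without the first or second UC7 replicate it was 5 and 10, without the second UC413 replicate 11, and with the stranded libraries alone, 1 for each isoline at that stage, limma called 0 genes in either direction (20 lower and 10 higher at an unadjusted p under 0.05). With the replicate number as a block within each stage, 22 were lower and 16 higher at EH10. The block gave 5 lower and 6 higher at EH25, and for EH50 it gave 29 lower and 16 higher. Each isoline call given below for a single gene of these lists was lost on leaving out at least 1 library.

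The extensin list, which holds mostly genes of the Ole e I and extensin family, had 8 of 17 tested genes lower and 0 higher in UC413 at EH50, with 3 higher at an unadjusted p under 0.05 in limma. With the replicate block 9 were lower and 1 higher. Its median log2 difference was −0.998, against −0.08 over all genes. Without SbPRP3 and the extensin-like gene it had 6 of 15 lower and a median of −0.53. SbPRP3 and the extensin-like gene were chosen at EH50, so their calls in these counts are not read as a test. Of the other genes called there, the most abundant were the SAH7 genes Glyma.04G104600 (283 ± 77.1 RPKM in UC7 and 144 ± 7.27 in UC413, SD, n = 2, log2 difference −1.23, limma adjusted p = 0.0151) and Glyma.06G105700 (251 ± 71.8 and 150.4 ± 6.35 RPKM, −0.998, limma adjusted p = 0.0278). Glyma.11G182100 of the same list went the other way at EH10, with 1.85 ± 0.658 RPKM in UC7 against 20.5 ± 3.51 RPKM (SD, n = 2; log2 difference 2.58, limma adjusted p = 0.0393). That call was lost with limma-voom (adjusted p = 0.0540) and with the stranded libraries alone. It was kept in only 2 of the 12 fits with 1 library left out, those without a UC7 EH25 replicate. At EH25 Glyma.18G274200, a low gene of this list, had a difference of 0.99 (limma adjusted p = 0.0485), and was not called with the replicate block (adjusted p = 0.0629), with limma-voom or with the stranded libraries.

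Arabinogalactan protein genes were lower in UC413 at EH50 in 11 of 24 tested with limma (8 with limma-voom), and 0 were higher, also at an unadjusted p under 0.05. The median log2 difference was −0.92, and all 24 were below 0. An AGP18 gene, Glyma.05G102100, had 92.5 ± 25.5 RPKM in UC7, and 29.5 ± 5.55 in UC413 (SD, n = 2; log2 difference −1.91, limma adjusted p = 0.00730). Glyma.06G050500 (AGP15) was lower at EH10 too (−1.17, limma adjusted p = 0.0178), but was not called on RPKM as deposited (−0.37) or without either UC413 replicate or the first UC7 replicate of EH10. On RPKM as deposited the medians at EH50 kept their direction (−0.67 for these genes and −0.71 for the extensins), while that of the extensins at EH10 turned from −0.38 to 0.41, and that of the arabinogalactan proteins there went from −0.73 to 0.0033. Without the first UC413 replicate of EH50, 2 arabinogalactan protein genes and 1 extensin gene were called lower; without the first UC7 replicate 2 and 3 were.

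**Figure D5:**
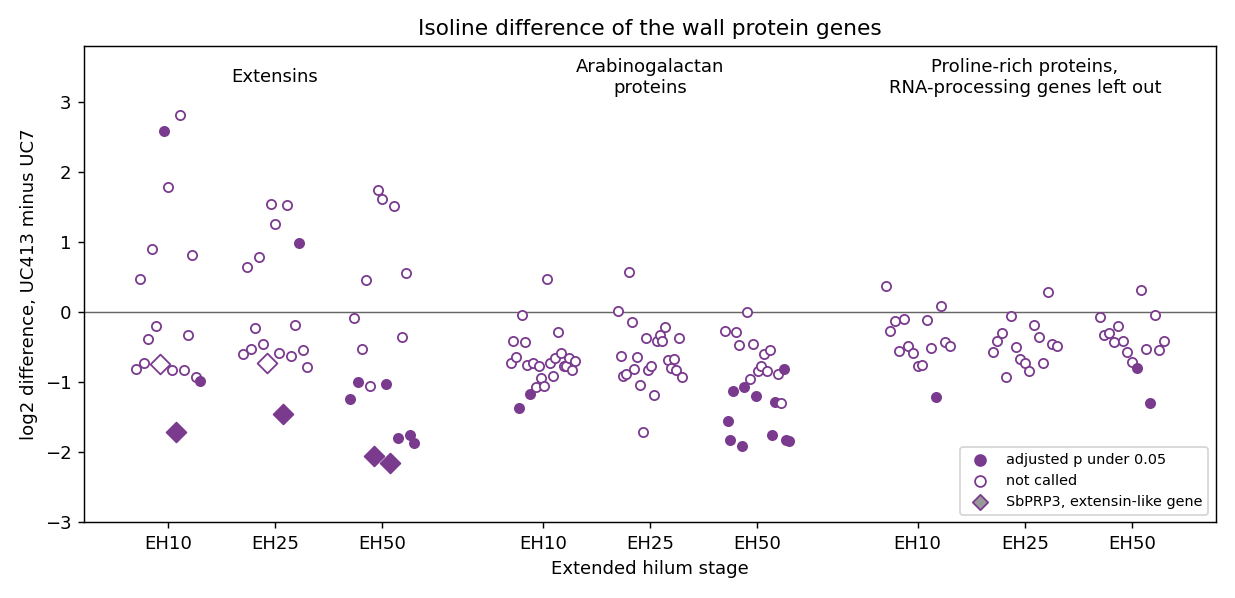
Log2 difference between the isolines (UC413 minus UC7, limma) of each tested gene of 3 annotation lists at EH10, EH25 and EH50, with filled symbols for an adjusted p under 0.05 and diamonds for SbPRP3 and the extensin-like gene. At EH50, 8 of 17 extensin genes and 11 of 24 arabinogalactan protein genes are filled and below 0. SbPRP3 and the extensin-like gene were chosen for their difference at EH50, so their filled symbols there are not read as a test.

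Of the proline-rich list, 54 genes of which 50 were tested, 4 were higher and 2 lower in UC413 at EH50. The 4 encode splicing factors matched through PRP40B as a symbol or PRP3 in the Pfam annotation, such as Glyma.10G255700 (PRP40B; 0.79, limma adjusted p = 0.0303) and Glyma.01G229700 (splicing factor 3; 0.75, limma adjusted p = 0.0142). With 35 such RNA-processing genes left out, 15 tested genes remained, with 2 lower and 0 higher (0 also at an unadjusted p under 0.05 in limma) and a median of −0.42. The list annotated as hydroxyproline-rich glycoproteins, many of which are not wall proteins, had 4 lower and 4 higher of 115 tested, and a median of −0.03. Of this list, 3 genes were among the 3 most abundant called wall protein genes of a stage and direction. Glyma.16G043100 was lower at EH10 (−0.76, limma adjusted p = 0.0427) and at EH50 (−0.89, limma adjusted p = 0.0241). On RPKM as deposited neither difference was called, and at EH10 the direction turned, with 56.2 ± 11.6 RPKM in UC7 and 57.4 ± 2.90 in UC413 (SD, n = 2). Glyma.18G301600, with a BAR domain, was higher at EH10 and EH50 (0.60 and 0.63, limma adjusted p = 0.0261 and 0.0222). Glyma.20G185300 (CHUP1) was higher at EH10 and EH25 (0.67 and 0.81, limma adjusted p = 0.0408 and 0.0349).

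Enzymes that modify these proteins were not called between the isolines at any stage with limma or limma-voom, and 0 had an unadjusted p under 0.05. These were 2 genes for prolyl 4-hydroxylases, which form hydroxyproline, and 4 for hydroxyproline arabinosyltransferases, which attach arabinose to it. Their median log2 differences at EH50 were −0.25 and −0.15. On RPKM as deposited all 6 were called higher in UC413 at EH10, where the median model was higher by 0.71 as well. From EH25 to EH50, over both isolines, 29 of the 206 wall protein genes fell and 6 rose, against 6.57% and 5.59% of all genes, and from EH10 to EH25 1 fell and 3 rose (0.183% and 1.37%).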

How the data were processed

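RNA was sequenced from 20 seed coat libraries, in 14 groups of isoline, stage and region. Per the paper's methods, the authors used Bowtie against cDNA models of Glyma genes (88647), tolerated at most 3 mismatches, kept reads with no more than 25 alignments, and deposited RPKM. Multiplied by model length, 100% of the RPKM values were whole multiples of a library's smallest step (tolerance 0.01), which gave the alignments. A read counts once for each model it aligned to, so counting intervals and limits (3 alignments) cover counting error only, and p-values measure the spread between these libraries.

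After division by median-of-ratios size factors, log2 of scaled RPKM plus 0.25 went into limma 3.58.1 (R 4.3.3; figures with matplotlib in Python), with a trend. Models at RPKM 1 or more in at least 2 libraries were tested: 57568 in the 12 libraries of EH10, EH25 and EH50, and 60196 in all 20, where single libraries were assumed to vary like the replicated groups. The Benjamini-Hochberg adjustment ran over all tested models of a contrast, and calls had an adjusted p under 0.05. Exact sign-flip tests were two-sided. The members and lists were chosen with earlier results of these data known, and the contrast of region by isoline, the list without RNA-processing genes and the block within each stage were added after the data had been seen. Named genes are the 3 members, SbPRP2, genes with SbPRP3's Pfam repeat (added later), the 5 genes most correlated with each member, and the 3 most abundant called wall protein genes per direction and stage; others were named after their values were seen. Code was tested on simulated data.

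Deviations of same-numbered replicates of the isolines correlated within a stage at 0.193 for EH10, 0.226 for EH25 and 0.468 for EH50. Between stages the values ran from −0.42 to 0.23, so those of EH10 and EH25 did not stand out. At EH50 the number goes with the library kit in both isolines, and the labels do not say what a number shares. The main fit took no account of the number, and replicate blocks were used only as alternatives. Alternatives were RPKM as deposited, upper quartile scaling, pseudocounts of 1 and 0.05, other filters, models with suffix 1, no trend, replicate blocks, kit as a covariate, limma-voom on alignments, stranded libraries only, and each library left out.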

Additional observations from a re-analysis of the deposited data

Results flagged for a closer look

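The scaled difference of SbPRP3 between whole seed coat and extended hilum went opposite ways in the isolines: it was below 0 in all 3 UC7 pairs (mean log2 difference −0.89) and above 0 in all 3 UC413 pairs (mean 0.27). In UC413 the difference at 10 to 25 mg was only 0.093, and WS25 (scaled 435) lay between the EH25 replicates (288 and 450). In UC7, WS10 as deposited (264 RPKM) lay between the EH10 replicates (250.2 and 296 RPKM). At EH10 and EH25, the stages that did not choose the gene, the difference between the isolines was 0.88 (SE 0.36) and did not pass the limma test (adjusted p = 0.915, range 0.467 to 0.936 over the alternatives that keep all libraries). Over those alternatives the difference itself ran from 0.37 to 0.88. The pairs at 50 to 100 mg share the EH50 libraries with the values that chose the gene, and each pair has 1 whole seed coat library.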

How the results depend on the processing

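The extensin-like gene kept direction and call in its tested isoline, stage and region differences under all alternatives other than leaving out libraries. SbPRP3 was not called in any tested comparison under any alternative. The hydroxyproline-rich gene entered the tests through UC7 alone, so nothing is read from its isoline differences under the alternatives; with a filter at RPKM 2 it could not be tested in the extended hilum libraries. On RPKM as deposited, uncalled values changed sign for SbPRP3 at EH10 (0.061) and for the hydroxyproline-rich gene from EH10 to EH25 (0.021), between regions (0.035; 0.11 with limma-voom) and for region by isoline (−0.20). Its difference from EH25 to EH50 was −0.051 with kit as a covariate, −0.050 with the stranded libraries alone and −0.051 without UC7 EH50 replicate 1. The cause was not tested.

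Leaving out 1 library gave these log2 ranges. For SbPRP3 they were −0.91 to −0.58 (isoline, EH10), −1.05 to −0.41 (isoline, EH25), 0.39 to 0.71 and 0.03 to 0.35 (stages), −0.46 to −0.12 (region) and −0.44 to −0.02 (single libraries). For the hydroxyproline-rich gene they were −0.21 to −0.09 and −0.051 to 0.40 (stages) and −0.23 to −0.06 (region). Its isoline ranges are left out, since the size of these differences depends on the pseudocount where UC413 is at 0. At EH25 it ran from −7.94 to −1.42 over the alternatives that could test it. For the extensin-like gene they were −1.80 to −1.62 (EH10), −1.70 to −1.20 (EH25), −1.06 to −0.80 and −1.73 to −1.48 (stages), −0.90 to −0.64 (region) and −1.36 to −0.96 (single libraries).

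Counts of wall protein genes moved most. Higher in UC7, 7 genes at EH10 became 1 on RPKM as deposited, 4 with stranded libraries and 22 with the replicate block within each stage; 1 at EH25 became 2 with upper quartile scaling or the kit covariate, 5 with that block and 0 without the members; 25 at EH50 became 13 on RPKM as deposited and 0 with stranded libraries. Higher in UC413, 9 at EH10 became 115 on RPKM as deposited, 5 with limma-voom, 1 with stranded libraries and 16 with the block; 2 at EH25 became 14 on RPKM as deposited, 6 with the block, 0 with the kit covariate or stranded libraries, and 1 with limma-voom, pseudocount 1, no filter, a filter at RPKM 2 or suffix 1 only; 8 at EH50 became 16 with the block, 0 with stranded libraries and 4 without splicing factors. With 1 library left out, in the order EH10, EH25 and EH50, 1 to 17, 0 to 17 and 3 to 31 were higher in UC7, and 0 to 19, 0 to 5 and 0 to 19 in UC413. The replicate block changed no call of SbPRP3 or the extensin-like gene.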
